A study of Mus musculus with 12 samples.

Results

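The mitochondrial ribosomal protein genes were followed in mouse bone marrow-derived macrophages (BMDMs). They were taken as every row whose gene symbol begins with Mrpl or Mrps followed by a number, which gave 76 of the 23847 rows of the expression tables, 47 Mrpl and 29 Mrps symbols, each on 1 row. Poly(A) RNA was sequenced from 4 groups of 3 samples each. All BMDMs came from wild-type C57BL/6 mice of 8 to 12 weeks and had been grown for 6 days with L929 cell supernatant, a source of macrophage growth factor. The control group received no further agent, the IL-4 group received IL-4 at 20 ng/ml for 24 h, the LPS group received lipopolysaccharide (LPS), a bacterial cell wall component, at 100 ng/ml for 3 h, and the IL-4+LPS group received the same IL-4 pretreatment followed by the same LPS exposure. The design asks how a type 2 cytokine and an inflammatory stimulus, alone and in sequence, alter macrophage transcripts. IL-4 here acted on cultured cells in the absence of other cell types, and the labels tie no replicate number to an animal.

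The mitochondrial ribosome translates the few messenger RNAs encoded by mitochondrial DNA, all of which specify subunits of the oxidative phosphorylation complexes. Its RNA is made inside the organelle, whereas its proteins are encoded in the nucleus, made in the cytosol and imported. Mrps symbols name proteins first assigned to the small subunit, which reads the messenger RNA, and Mrpl symbols those of the large subunit, which forms the peptide bond. Some of these proteins have counterparts in bacterial ribosomes and others are found only in mitochondria. Alternatively activated macrophages are known for oxidative metabolism, and macrophages exposed to LPS for their turn toward glycolysis.

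The deposited values are FPKM, in which fragment numbers are corrected for transcript length and library size, so levels can be set side by side between genes. They summed to between 457583 and 495025 per sample, and the relative sequencing depth, read from the spacing of the lowest values, ranged from 0.99 to 3.3 times that of control replicate 1. Macrophage markers were abundant in all 12 samples, with Cd68 at 998 to 1881 FPKM and Csf1r at 411 to 932 FPKM. The summed macrophage list, mostly Lyz2, was at 19233 to 20599 FPKM in control samples and 7571 to 7785 FPKM with IL-4, and at 15468 to 16697 FPKM with LPS against 6567 to 6954 FPKM with both agents. Cd3e, Cd3g and Cd8a of T cells, all 3 B cell markers and all 4 fibroblast markers stayed under 1 FPKM throughout, while Cd4, the fourth T cell gene listed, reached 11.7 FPKM. The neutrophil-associated genes S100a8 and S100a9 reached 447 and 517 FPKM, and the summed neutrophil list was at 307 to 818 FPKM in control samples and 210 to 389 FPKM with IL-4. It was at 487 to 974 FPKM with LPS and at 413 to 813 FPKM with both agents. The dendritic cell list, at 26.0 to 43.2 FPKM in control and 298 to 345 FPKM in IL-4 samples (21.4 to 34.2 and 299.7 to 365 FPKM in LPS-exposed cells), consisted almost wholly of Itgax, and Flt3 stayed under 1 FPKM. The part of these lists in the results was not tested. In such bulk samples, fewer cells of a type and less RNA per cell cannot be told apart.

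All 76 genes reached at least 1 FPKM in at least 1 sample and were tested among the 11191 rows that did so. Their means over the 12 samples ran from 3.87 to 122 FPKM, with a median of 17.6 FPKM. Mrpl52 (122 FPKM), Mrps21 (103 FPKM) and Mrpl20 (90.5 FPKM) had the highest means, and Mrpl19 (3.87 FPKM), Mrpl17 (3.997 FPKM) and Mrpl41 (4.34 FPKM) the lowest. All lie on mouse genome build mm10 and are annotated as protein-coding in GENCODE vM21. They are spread over 17 chromosomes, with 10 on chromosome 11 and 8 on chromosome 17. The summed FPKM of the 76 genes was 1843 ± 119 (SD, n = 3) in control samples and 2175 ± 99.7 in IL-4 samples. It was 1498 ± 70.1 in LPS samples and 1694 ± 117 in IL-4+LPS samples. The LPS samples (1418 to 1546) lay below all control samples (1706 to 1917), which lay below all IL-4 samples (2060 to 2238), whereas the IL-4+LPS samples (1580 to 1815) overlapped the control range.

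**Figure D1:**
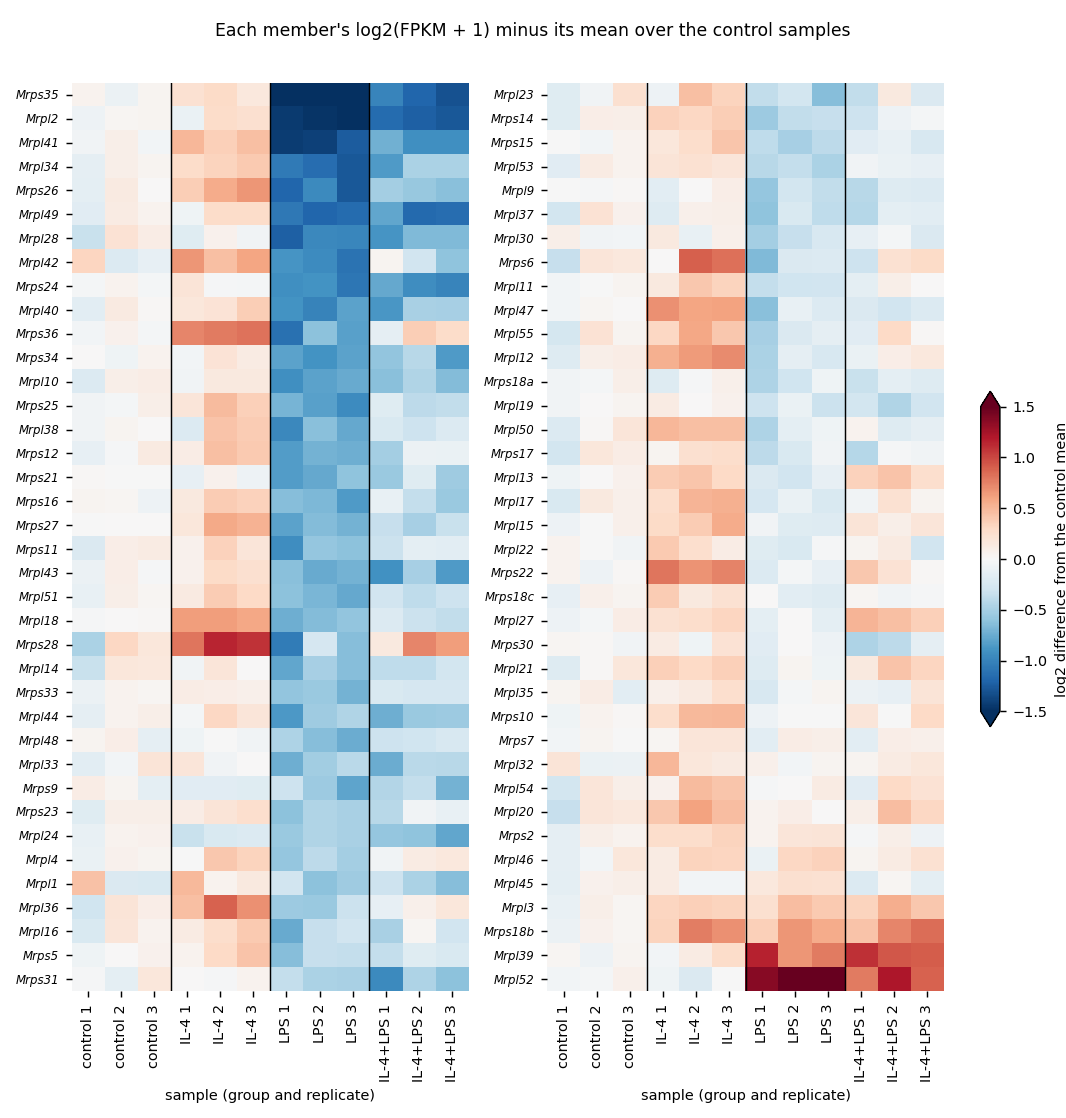
Log2(FPKM + 1) of each of the 76 genes minus its mean over the 3 control samples, in each of the 12 samples, with genes ordered from the lowest to the highest LPS minus control difference (left column first). Most genes are blue under LPS and pale or red under IL-4, while Mrpl52 and Mrpl39 at the bottom right are red in all 6 LPS-exposed samples.

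LPS alone lowered most of these transcripts, about as it lowered the typical transcript of these cells. With limma on log2(FPKM + 1) and Benjamini-Hochberg adjustment over all 11191 rows, 51 of the 76 genes fell, 4 rose and 21 did not pass the threshold of an adjusted p of 0.05. Over all rows, 57.7% fell and 16.9% rose. The median log2 difference of the 76 genes was −0.43, and that of all rows was −0.44, with 39 of the 76 above it. When each sample was scaled to a common median ratio, the median of all rows moved to −0.11 and that of the 76 genes to −0.06. On that scale 25 of the 51 were still lower, 25 no longer passed, and Mrpl13 changed from lower to higher. The 4 that rose stayed higher, and 14 more were then called higher. In total 25 of the 76 were lower and 19 higher after scaling, against 4218 lower and 3130 higher of all 11191 rows.

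Mrps35, a mitochondria-specific protein of the small subunit (chr6:147042770-147070902, plus strand), fell furthest. Its 3 control samples were at 14.2, 12.8 and 14.2 FPKM and its 3 LPS samples at 3.55, 3.32 and 3.83 FPKM. The groups were far from overlapping, with a log2 difference of −1.69 ± 0.09 (SE, adjusted p = 7.54e-08). Mrpl2 (chr17:46646248-46650132, plus strand) encodes a conserved protein next to the peptidyl transferase centre, where the peptide bond forms. It stood at 27.5, 29.5 and 29.9 FPKM in control samples and at 10.1, 9.78 and 8.90 FPKM after LPS. Every LPS sample was thus far below every control sample, and the log2 difference was −1.503 ± 0.10 (adjusted p = 3.22e-07). Mrpl41 (chr2:24972470-24975098, minus strand), a mitochondria-specific large subunit protein, dropped from 5.23, 5.89 and 5.30 FPKM to 1.42, 1.45 and 1.73 FPKM. This low-level gene became the least abundant of the 76 in all 3 LPS samples (log2 difference −1.36 ± 0.09, adjusted p = 2.7e-07). Mrpl34 (chr8:71464926-71465753, plus strand), counterpart of a small bacterial large subunit protein, went from 37.2, 43.4 and 42.2 FPKM to 19.1, 17.99 and 16.4 FPKM. Its log2 difference was −1.16 ± 0.11 (adjusted p = 3.87e-06). Mrps26, Mrpl49 and Mrpl28 also fell by more than 2-fold, with log2 differences of −1.14, −1.14 and −1.05. On the log2(FPKM + 1) scale these 7 were the only genes of the 76 called lower by at least 2-fold, against 2121 of all 11191 rows. By the ratio of group means in FPKM, Mrpl42 (0.485), Mrps25 (0.488) and Mrps24 (0.492) fell that far as well. The first 7 all remained lower after median scaling, with scaled differences of −1.34 for Mrps35 and −0.66 for Mrpl28.

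Mrpl52 and Mrpl39 went the other way. Mrpl52 (chr14:54426909-54429750, plus strand), a mitochondria-specific large subunit protein, was at 69.9, 70.7 and 75.7 FPKM in control samples. After LPS it was at 187, 205 and 222 FPKM, which made it the most abundant of the 76 genes in each LPS sample, a place held by Mrps21 in each control sample. The log2 difference was 1.49 ± 0.11 (adjusted p = 8.79e-07) and the ratio of group means 2.83. Mmp14, which encodes a membrane-bound matrix metalloproteinase and starts 1855 bases beyond the annotated end of Mrpl52 on the same strand, was chosen for mention after its values were seen. Mmp14 stood at 8.17 ± 0.95 FPKM (SD, n = 3) in control and 236.5 ± 54.9 FPKM in LPS samples. With IL-4 it was at 2.05 ± 0.35 FPKM, and with both agents at 139 ± 51.7 FPKM. Its part in the Mrpl52 values was not tested.

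Mrpl39 (chr16:84717580-84735302, minus strand), another mitochondria-specific large subunit protein, was at 10.4, 9.53 and 10.5 FPKM in control samples and at 23.8, 16.6 and 18.2 FPKM in LPS samples. All LPS samples were above all control samples, with a log2 difference of 0.87 ± 0.13 (adjusted p = 9.73e-05). Mrps18b (chr17:35910385-35916369, minus strand) is one of 3 mammalian relatives of a single bacterial small subunit protein. Its values were 12.4, 13.9 and 13.6 FPKM in control and 17.4, 21.6 and 19.95 FPKM in LPS samples, again without overlap (log2 difference 0.52 ± 0.14, adjusted p = 0.00485). Mrpl3, a conserved protein that reaches toward the peptidyl transferase centre, was at 17.97, 20.9 and 20.0 FPKM in control and 23.2, 27.4 and 26.0 FPKM in LPS samples (log2 difference 0.36 ± 0.08, adjusted p = 0.00224). Mrpl52 was the only one of the 4 to pass a 2-fold limit, against 883 of all 11191 rows that did so upward.

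**Figure D2:**
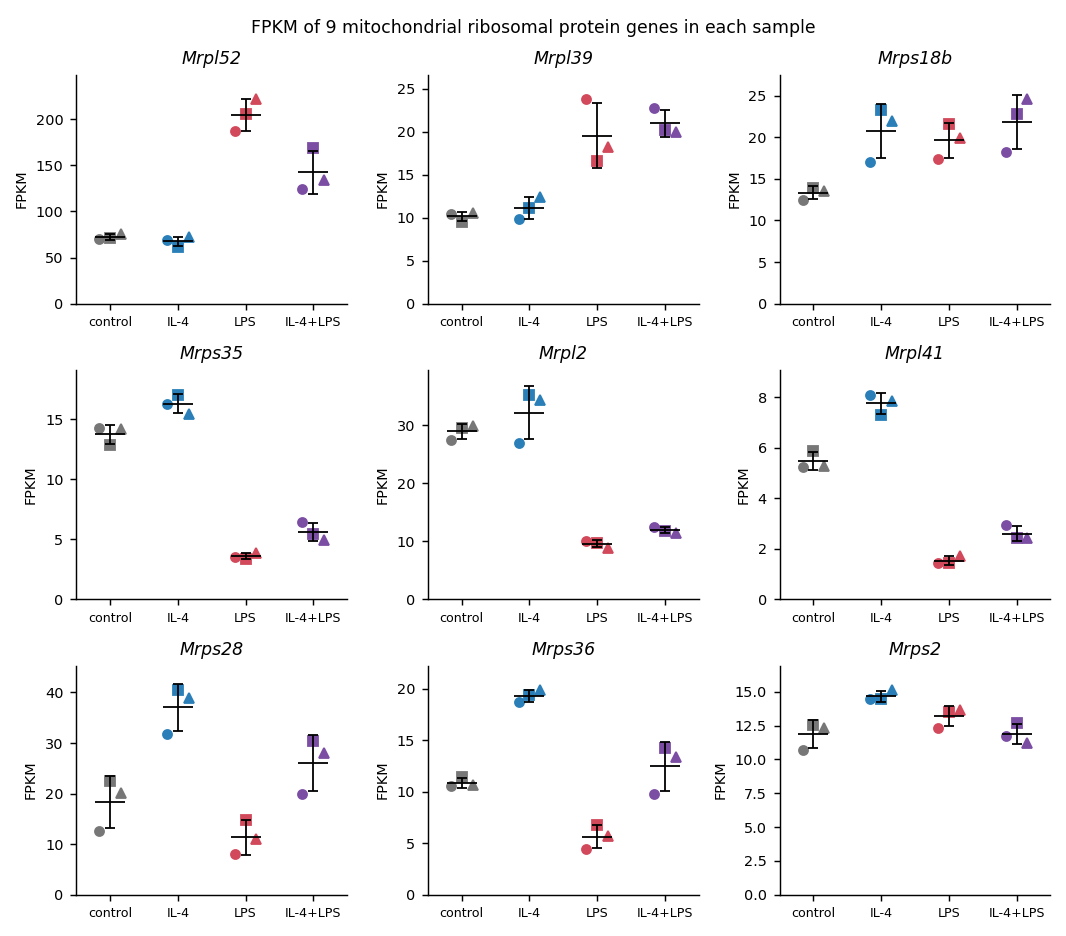
FPKM of 9 genes in each of the 12 samples (circle, square and triangle for replicates 1, 2 and 3), with the mean and SD (n = 3) of each group in black and axes that start at 0. Mrpl52 lies at 187 to 222 FPKM under LPS against 69.9 to 75.7 in control samples, Mrps35, Mrpl2 and Mrpl41 drop under LPS, and Mrps28 and Mrps36 are highest under IL-4.

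The stretch of 150 bases just before the annotated start is printed for Mrpl52, which rose most with LPS, and for 3 of the genes that fell furthest, from RefSeq promoter windows (build GRCm38.p6, the same assembly as mm10), to show what lies upstream of genes that moved apart. Of the other genes that rose, Mrpl39 has no 150 bases in its window clear of the annotated gene, and Mrps18b and Mrpl3 are not shown. It ends before the first base that the tables or GENCODE assign to the gene. Capitals mark matches, on either strand, to 6 motifs: ETS as CCGGAAG, the site of GABP, NRF1 as GCGCANGCG, YY1 as AAGATGGC, the E-box CACGTG, STAT6 as TTCNNNNGAA, and the NF-kB motif.
Mrpl52, chr14:54426759-54426908, plus strand: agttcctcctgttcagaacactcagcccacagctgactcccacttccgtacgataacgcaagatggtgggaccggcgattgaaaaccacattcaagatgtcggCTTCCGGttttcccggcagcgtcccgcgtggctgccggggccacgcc
Mrpl2, chr17:46646079-46646228, plus strand: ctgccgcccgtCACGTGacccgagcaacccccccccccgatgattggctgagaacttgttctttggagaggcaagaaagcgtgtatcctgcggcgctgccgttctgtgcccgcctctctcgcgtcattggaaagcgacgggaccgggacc
Mrpl41, chr2:24975099-24975248, minus strand: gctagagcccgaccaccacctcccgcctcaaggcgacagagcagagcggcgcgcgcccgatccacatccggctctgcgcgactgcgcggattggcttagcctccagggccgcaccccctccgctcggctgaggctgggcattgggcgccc
Mrpl34, chr8:71464776-71464925, plus strand: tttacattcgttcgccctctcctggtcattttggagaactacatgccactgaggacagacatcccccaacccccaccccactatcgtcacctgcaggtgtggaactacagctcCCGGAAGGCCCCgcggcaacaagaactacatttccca
The capitals are an ETS match in Mrpl52, which rose, an E-box in Mrpl2, and an ETS match that runs into an NF-kB match in Mrpl34, both of which fell. None of the 6 motifs matched in the Mrpl41 stretch. The windows of the other genes that rose hold 2 NRF1 matches in Mrpl39, 1 ETS and 1 NRF1 match in Mrps18b and 1 ETS match in Mrpl3.

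IL-4 raised many of these transcripts. After IL-4 alone, 29 of the 76 genes rose and 1 fell, against 16.0% of all rows that rose and 21.0% that fell. The median log2 difference of the 76 genes was 0.25 and that of all rows was −0.05, with 72 of the 76 above the latter. Median scaling hardly moved this comparison, with 30 higher, 1 lower and a median of 0.24. All 11191 rows then gave 1719 higher and 2339 lower. The count depended on single samples, since 17 genes rose without IL-4 replicate 3 and 44 rose when only replicates 2 and 3 of each group were used, 28 of them among the 29. The shares of all rows with these sets of samples were not computed.

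Mrps28 (chr3:8802146-8923857, minus strand), the relative of a bacterial protein that helps to bind messenger RNA, rose most. Its control samples were at 12.5, 22.4 and 20.1 FPKM and its IL-4 samples at 31.8, 40.5 and 38.9 FPKM. Replicate 1 was the lowest of each group, yet the groups did not overlap, and the log2 difference was 1.01 ± 0.25 (adjusted p = 0.00981). Mrps36 (chr13:100735940-100744659, minus strand), a protein since placed in the 2-oxoglutarate dehydrogenase complex of the citric acid cycle rather than in the ribosome, was at 10.5, 11.4 and 10.6 FPKM in control samples. It reached 18.7, 19.4 and 19.9 FPKM with IL-4 (log2 difference 0.78 ± 0.14, adjusted p = 0.00191). Its transcript shared 36.2% of its 50-base words with another annotated gene, chiefly the pseudogene Mrps36-ps1, so its level is uncertain. Mrps22 (chr9:98588730-98601679, minus strand), a mitochondria-specific small subunit protein, went from 9.28, 8.36 and 9.01 FPKM to 16.2, 14.8 and 15.5 FPKM, with tight groups that were far apart (log2 difference 0.74 ± 0.10, adjusted p = 0.000223). Mrpl36 (chr13:73331009-73332178, plus strand), the relative of a very small bacterial large subunit protein, was at 20.2, 28.9 and 26.9 FPKM in control and 34.5, 47.0 and 41.0 FPKM in IL-4 samples (log2 difference 0.67 ± 0.15, adjusted p = 0.00562). Mrps28 was the only mitochondrial ribosomal protein gene past a 2-fold limit. Of all 11191 rows, 309 were higher and 391 lower with IL-4 by that limit.

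Mrpl24, a conserved protein at the exit of the peptide tunnel (chr3:87919544-87923433, plus strand), was the 1 gene that fell, from 46.6, 52.2 and 52.5 FPKM to 39.7, 42.8 and 43.7 FPKM. The groups did not overlap, and the log2 difference was −0.26 ± 0.08 (adjusted p = 0.023), which no longer passed without control replicate 2 (0.075), control replicate 3 (0.0793) or IL-4 replicate 1 (0.0686). Its exons share 26.3% of their bases with Rrnad1 on the other strand. Mrps6, whose exons share 19.9% of their bases with the gene model Gm49711, did not pass (log2 difference 0.58 ± 0.26, adjusted p = 0.109), with 18.1, 26.6 and 26.2 FPKM in control and 23.5, 44.1 and 42.1 FPKM in IL-4 samples. With replicates 2 and 3 only it rose (log2 difference 0.69, adjusted p = 5.69e-05), and it also passed with the replicate number as a block. Replicate 1 was the lowest of both groups, and its IL-4 value lay within the control range.

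The 150 bases before the start of Mrps36 and Mrps22 are given as examples of genes that rose with IL-4, with capitals for the same motifs.
Mrps36, chr13:100744660-100744809, minus strand: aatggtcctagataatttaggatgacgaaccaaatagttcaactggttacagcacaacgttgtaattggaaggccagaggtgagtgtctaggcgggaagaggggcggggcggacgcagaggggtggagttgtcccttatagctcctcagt
Mrps22, chr9:98601680-98601829, minus strand: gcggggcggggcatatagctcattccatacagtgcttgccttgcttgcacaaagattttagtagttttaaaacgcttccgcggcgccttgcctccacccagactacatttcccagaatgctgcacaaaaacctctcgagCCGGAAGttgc
Mrps22 carried an ETS match 11 bases before the start, and no stretch of these 2 genes matched the STAT6 motif.

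**Figure D3:**
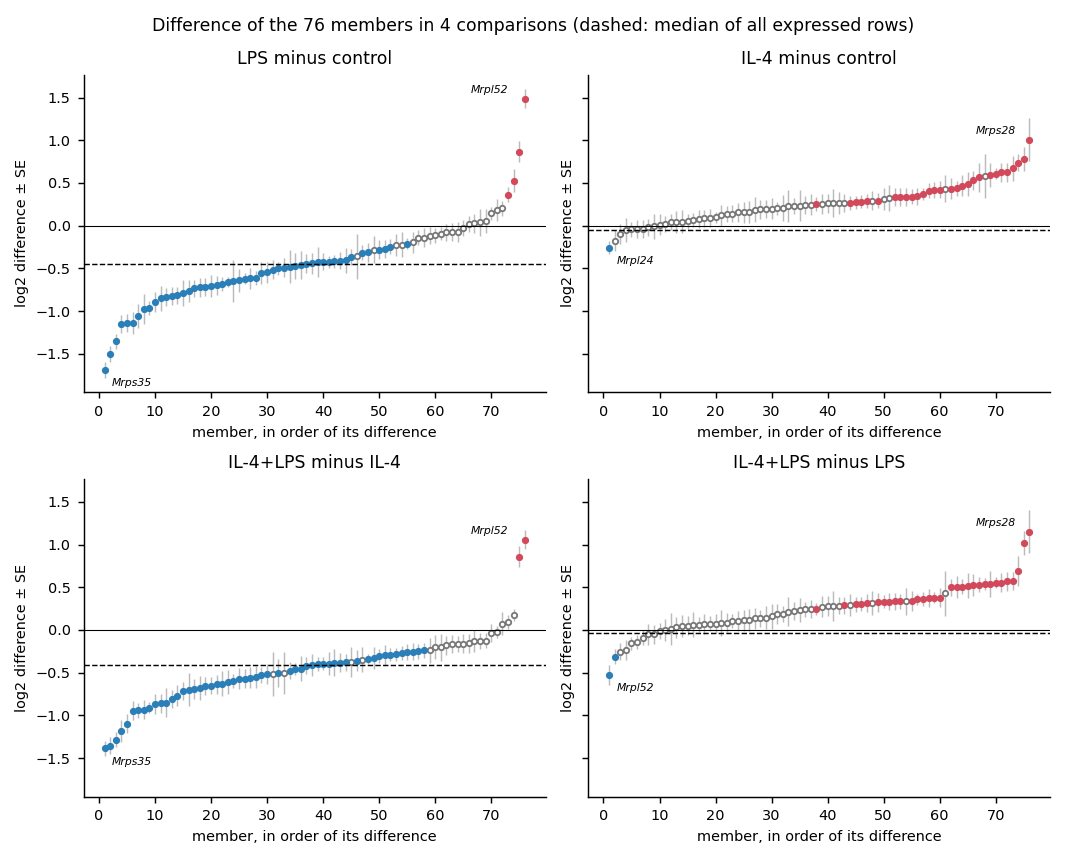
Log2 difference of each of the 76 genes with its SE in 4 comparisons, each ordered from lowest to highest, with red for higher, blue for lower and open points for an adjusted p of 0.05 or more. In the LPS comparisons the points straddle the dashed median of all expressed rows (−0.44 and −0.41), and in the IL-4 comparisons most lie above it (−0.05 and −0.03).

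With the LPS and IL-4 comparisons set beside each other, which share the control samples, 17 genes were lower with LPS and higher with IL-4. They include Mrpl18, Mrpl34, Mrpl41, Mrps26 and Mrps36, which stayed lower with LPS after median scaling, Mrpl12, Mrpl36 and Mrps28, which did not pass on that scale, and Mrpl13, which was then higher. Mrpl3 and Mrps18b were higher in both, Mrpl24 was lower in both (with LPS at −0.10 and not passing after scaling), and 33 were lower with LPS without passing in the IL-4 comparison. Another 10 were higher with IL-4 without passing in the LPS comparison, among them Mrpl20 and Mrps22. The shares of all rows in these joint classes were not computed, so whether the counts are unusual cannot be told. In the single comparisons 57.7% of all rows were lower with LPS and 16.0% higher with IL-4.

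LPS given after IL-4 also lowered most of the transcripts. Compared with IL-4 alone, 54 of the 76 genes fell and 2 rose in IL-4+LPS samples, against 57.9% and 15.0% of all rows. The median was −0.41 for both the 76 genes and all rows. After median scaling, which moved the median of all rows to −0.08, 19 of the 76 were lower and 9 higher. All 11191 rows then gave 3759 lower and 2863 higher. Mrps35, Mrpl2 and Mrpl41 again fell furthest (log2 differences −1.39, −1.36 and −1.29), followed by Mrpl49 (−1.19), whose IL-4 samples at 13.6, 17.4 and 17.5 FPKM came down to 7.90, 5.84 and 5.92 FPKM. Mrpl52 rose from 68.8, 61.6 and 71.8 FPKM in IL-4 samples to 124, 169 and 134 FPKM (log2 difference 1.06 ± 0.11, adjusted p = 1.24e-05). Mrpl39 rose from 9.86, 11.1 and 12.4 FPKM to 22.8, 20.2 and 19.96 FPKM (log2 difference 0.86 ± 0.13, adjusted p = 0.000121). They were the only 2 of the 76 that rose, and neither set of samples overlapped.

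IL-4 pretreatment also raised some of the genes in LPS-exposed cells. Among these cells, 31 of the 76 were higher, 2 lower and 43 not called with IL-4 compared with LPS alone, against 15.0% of all rows higher and 15.8% lower. The median log2 difference was 0.26 for the 76 genes and −0.03 for all rows, with 67 of the 76 above the latter. Median scaling left 30 of the 76 higher and 2 lower, against 1729 higher and 1938 lower of all 11191 rows. Without LPS replicate 3, 20 were higher, a setting for which the share of all rows was not computed. Mrps28 was at 8.09, 14.9 and 11.1 FPKM in LPS and 19.9, 30.3 and 28.0 FPKM in IL-4+LPS samples (log2 difference 1.15 ± 0.25, adjusted p = 0.00561). Mrps36 was at 4.46, 6.73 and 5.73 FPKM against 9.78, 14.2 and 13.4 FPKM (log2 difference 1.02 ± 0.14, adjusted p = 0.000381). Both passed a 2-fold limit with no overlap between the groups, and 303 of all 11191 rows were higher by that limit. Mrpl42, a mitochondria-specific large subunit protein (15.0, 14.4 and 12.7 FPKM against 29.2, 23.1 and 18.4 FPKM), and Mrps26, a mitochondria-specific small subunit protein (8.71, 10.4 and 8.19 FPKM against 14.6, 14.0 and 13.3 FPKM), followed with log2 differences of 0.69 and 0.57. Mrpl52 was lower with IL-4 than without it under LPS (log2 difference −0.53 ± 0.11, adjusted p = 0.00521), and its IL-4+LPS samples lay between the control and the LPS samples. Mrpl45, which holds the ribosome against the inner mitochondrial membrane, was at 10.4, 11.1 and 10.98 FPKM with LPS and at 7.87, 9.49 and 8.25 FPKM with IL-4+LPS (log2 difference −0.31 ± 0.09, adjusted p = 0.0235), a call that was lost without either of 2 LPS or 2 IL-4+LPS samples. Of the 76 genes, 19 were higher with IL-4 both in the absence and in the presence of LPS. By these calls 10 were higher only in its absence and 12 only in its presence. The shares of all rows in the same joint classes were not computed. The difference between the 2 effects is the interaction given next.

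Whether IL-4 changed the response to LPS was tested by the interaction, which is the log2 difference that LPS made in IL-4-treated cells less the one it made in control cells. A single gene passed, 1 of 76 lower and 0 higher, against 4.63% of all rows lower and 4.58% higher, and 14 of the 76 had an unadjusted p under 0.05, as did 2703 of all 11191 rows. With replicates 2 and 3 only, 8 of the 76 were lower and 6 higher. With the replicate number as a block, several passed in each direction, as given in the last section. The shares of all rows at these 2 settings were not computed, so whether the counts are unusual cannot be told. The gene that passed in the main fit was Mrps2 (chr2:28468066-28471177, plus strand), counterpart of a bacterial small subunit protein. Mrps2 was at 10.7, 12.6 and 12.3 FPKM in control and 14.4, 14.4 and 15.1 FPKM in IL-4 samples. It was at 12.3, 13.5 and 13.7 FPKM in LPS and 11.7, 12.7 and 11.2 FPKM in IL-4+LPS samples. Its LPS response was 0.14 ± 0.08 without IL-4 (adjusted p = 0.115) and −0.29 ± 0.08 after IL-4 (adjusted p = 0.00673), which gave an interaction of −0.43 ± 0.11 (adjusted p = 0.0354). After median scaling the 2 responses were 0.53 (adjusted p = 9.36e-05) and 0.10 (adjusted p = 0.258), so the direction after IL-4 turned, while the interaction stayed at −0.43 (adjusted p = 0.0292). The call was lost when any 1 of 8 samples was left out.

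The genes were then read by the place of their proteins in the ribosome. These sets are small and were not tested as sets. Over all rows, 57.7% fell with LPS and 16.0% rose with IL-4. In the stalk, which recruits translation factors, Mrpl10, Mrpl11 and Mrpl12 all fell with LPS (log2 differences −0.82, −0.32 and −0.28), but the Mrpl11 and Mrpl12 differences were 0.04 and 0.12 after median scaling and no longer passed. Mrpl11 and Mrpl12 rose with IL-4 (0.29 and 0.63), and Mrpl10 was at 0.08 with an adjusted p of 0.586. Mrpl12, which is also known to bind the mitochondrial RNA polymerase, was at 32.9, 40.3 and 40.8 FPKM in control and 55.2, 59.4 and 62.3 FPKM in IL-4 samples. Mrps12, at the decoding centre, fell with LPS (−0.76, adjusted p = 0.000301) and rose with IL-4 in LPS-exposed cells (0.52, adjusted p = 0.0108).

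Around the peptidyl transferase centre, LPS lowered Mrpl2 and Mrpl16 (−0.46, and −0.08 without passing after scaling) and raised Mrpl3, while Mrpl27 was at −0.09 (adjusted p = 0.268). Mrpl27 was the highest of the 4 in its response to IL-4 under LPS, at 47.4, 45.4 and 42.6 FPKM against 29.7, 33.2 and 29.6 FPKM with LPS alone (log2 difference 0.54 ± 0.07, adjusted p = 0.000304). Its transcript shared 32.4% of its 50-base words with other genes. At the tunnel exit, where the new peptide leaves, Mrpl23, Mrpl24 and Mrpl44 fell with LPS (−0.43, −0.50 and −0.62), which did not hold after median scaling. None of the 5 genes examined (also Mrpl22 and Mrpl45) passed as higher with IL-4, against 16.0% of all rows. Mrpl22, Mrpl23, Mrpl44 and Mrpl45 were at 0.255, 0.234, 0.156 and 0.017 with IL-4, and Mrpl24 fell as given above. In the central protuberance, the crown of the large subunit, Mrpl18, Mrpl38, Mrpl40 and Mrpl48 fell with LPS by 0.66, 0.79, 0.90 and 0.62 on the log2 scale and still fell after median scaling. Mrpl46 of the same region was at 0.18 (adjusted p = 0.213). Mrpl18 was also one of the sharpest IL-4 responses, from 24.7, 25.1 and 25.4 FPKM to 39.1, 39.3 and 37.9 FPKM (log2 difference 0.61 ± 0.06, adjusted p = 3.62e-05).

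The 3 relatives of the same bacterial protein differed. Mrps18b rose with both LPS and IL-4, as given above. Mrps18c rose with IL-4 (log2 difference 0.25 ± 0.08, adjusted p = 0.0372) and was at −0.12 with LPS (adjusted p = 0.233). Mrps18a, whose protein sits in the large subunit despite its symbol, fell with LPS (−0.28, adjusted p = 0.0388), without passing after median scaling, and was at −0.04 with IL-4 (adjusted p = 0.802). The differences between the 3 genes were not tested. Mrps30, also a large subunit protein by position, passed in neither comparison (−0.08 and 0.09). After median scaling Mrpl27, Mrpl46, Mrps18c and Mrps30 were called higher with LPS, at 0.31, 0.57, 0.29 and 0.30.

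By class, the mitochondria-specific small subunit genes were lowered by LPS in 8 of 10 cases and raised in 1, with a median of −0.67, against 57.7% of all rows lower, and the small subunit genes with bacterial counterparts were lowered in 10 of 16 (median −0.43). The corresponding counts in the large subunit were 12 of 19 lower and 2 higher (median −0.42) and 20 of 30 lower and 1 higher (median −0.34). After median scaling 6 of the 10, 5 of the 16, 8 of the 19 and 5 of the 30 were lower, and 2, 4, 6 and 7 higher. The large subunit genes with bacterial counterparts thus had more higher than lower calls. All 11191 rows gave 4218 lower and 3130 higher on that scale. With IL-4 the same classes gave 5 of 10, 6 of 16, 4 of 19 and 13 of 30 higher, with medians from 0.20 to 0.28, against 16.0% of all rows higher. Mrps18b, the 1 raised gene of the 10, and Mrps18a were counted as mitochondria-specific here, although both are relatives of a bacterial protein as given above. The classes were not tested against each other.

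Other genes of the mitochondrial translation pathway were set beside the 76, with the shares of all rows (57.7% lower and 16.9% higher with LPS, 16.0% higher and 21.0% lower with IL-4) as background. After median scaling the background with LPS was 4218 lower and 3130 higher of 11191 rows. The 6 mitoribosomal proteins that bear other symbols all fell with LPS, with Ict1, a peptide-release protein built into the large subunit, furthest (−1.33), and only Ptcd3 rose with IL-4 (0.38). After median scaling 1 of the 6 was lower. Translation factors fell in 13 of 14 cases with LPS (median −0.73, and 10 lower after scaling), among them Oxa1l, which inserts new proteins into the inner membrane (−1.39). Aminoacyl-tRNA synthetases of mitochondria fell in 15 of 17 cases (median −0.74, and 14 lower after scaling), with Cars2 at −1.34. Assembly factors fell in 12 of 19 cases, with a median of −0.44 equal to that of all rows, and 9 were lower and 5 higher after scaling. The furthest was Rbfa, a small subunit maturation factor, at −2.38, with group means of 45.1 and 7.90 FPKM in control and LPS samples. With IL-4, 4 of the 14 translation factors, 3 of the 17 synthetases and 3 of the 19 assembly factors rose and 2, 1 and 1 fell, including the elongation factor Gfm1 (0.60) and C1qbp (0.80).

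Among genes of mitochondrial transcription and RNA handling, 4 of 10 fell and 1 rose with LPS, which median scaling turned to 1 lower and 3 higher. The 1 that rose before scaling was Pnpt1, a mitochondrial RNA-degrading enzyme (log2 difference 1.25, adjusted p = 1.8e-06). Tfb2m and Slirp were among the 4 that rose with IL-4 (0.41 and 0.49). Of 9 nuclear regulators, 4 rose and 1 fell with IL-4, and 5 rose and 2 fell with LPS. Ppargc1b, a coactivator of mitochondrial genes, rose with IL-4 from 0.578, 0.613 and 0.489 FPKM to 2.86, 3.48 and 3.02 FPKM, and Myc from 6.75, 9.21 and 10.4 FPKM to 20.2, 26.3 and 25.1 FPKM (log2 differences 1.40 and 1.35). With LPS, Myc fell by 1.48 and Pparg, a lipid-sensing nuclear receptor, by 1.93 on the log2 scale, while Ppargc1b rose by 1.04 (adjusted p = 5.37e-05), and Nrf1 and Gabpa, whose proteins bind 2 of the motifs searched, rose by 0.46 and 0.32. Nrf1 was the 1 regulator that fell with IL-4 (−0.27, adjusted p = 0.0258), and Gabpa was at 0.06 (adjusted p = 0.736). Yy1, whose motif was also searched, passed neither with LPS nor with IL-4 (−0.18 and −0.10). In LPS-exposed cells, Nrf1 and Yy1 were the 2 regulators lower with IL-4 (−0.43 and −0.30), and none was higher.

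For comparison, the 78 expressed subunits of oxidative phosphorylation gave 56 higher and 1 lower with IL-4 (median 0.46) and 51 lower with LPS (median −0.43, and 8 lower and 9 higher after scaling). The 81 expressed cytosolic ribosomal protein genes gave 7 higher and 3 lower with IL-4 (median 0.04) and 62 lower with LPS (median −0.33), a direction that median scaling turned to 11 higher and 1 lower. The 76 mitochondrial ribosomal protein genes thus lay between these lists in their count of higher genes with IL-4, and the lists were not tested against each other.

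**Figure D4:**
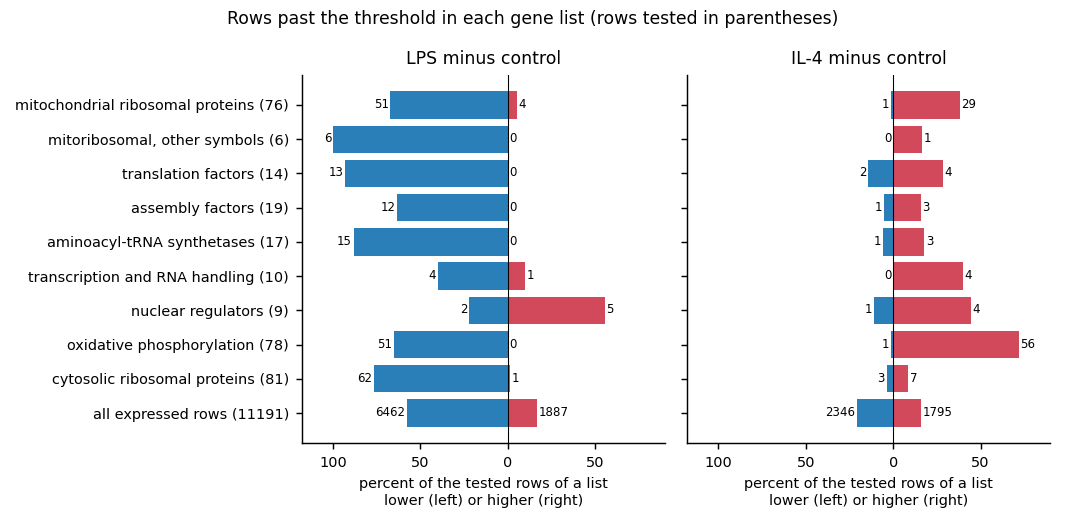
Percent of the tested rows of each gene list that were lower (blue, left) or higher (red, right) at an adjusted p under 0.05, with the number of rows beside each bar. With LPS 51 of the 76 mitochondrial ribosomal protein genes were lower, near the share of all rows, and with IL-4 29 were higher, against 56 of 78 oxidative phosphorylation and 7 of 81 cytosolic ribosomal protein genes.

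Several values rest on sequence that is not unique to the gene. The library kit does not mark strand, so reads from overlapping genes on opposite strands cannot be told apart. Exons of 12 of the 76 genes share more than 10% of their bases with another protein-coding gene, with the largest shares for Mrpl53 (88.0%), Mrps25 (69.8%, with Nr2c2) and Mrps34 (63.4%, with Mapk8ip3). Nr2c2 fell with LPS (−1.40) as Mrps25 did (−0.81), and fell with IL-4 (−0.56) while Mrps25 rose (0.34). By sequence, 15 of the 76 share more than 10% of their 50-base words with another gene, led by Mrpl53 (100%) and Mrpl23 (66.7%, chiefly with Mrpl23-ps1), and these include Mrps18b (30.9%), Mrpl42 (18.8%) and Mrpl41 (13.8%). Mrpl52, Mrpl39, Mrps35, Mrpl2, Mrps28 and Mrps22 were in neither set.

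Many of the genes start close to another gene. Protein-coding genes on the opposite strand were sought that start from 1000 bases upstream to 100 bases downstream of the gene's own start. Such a gene was present for 18 of the 76 (23.7%), against 12.0% of 9985 expressed protein-coding genes. Mrpl2 starts 206 bases from the gene body of Klc4, a kinesin light chain gene that fell with LPS from 39.2 ± 1.69 to 6.23 ± 1.71 FPKM (SD, n = 3), a log2 difference of −2.50. Mrpl41 starts 934 bases from Pnpla7, which fell from 30.9 ± 4.14 to 10.3 ± 1.81 FPKM (SD, n = 3) with LPS, and by 0.53 on the log2 scale with IL-4, where Mrpl41 rose by 0.44. Mrpl30 and Mitd1, 65 bases apart, moved in opposite directions with LPS (−0.37 and 1.76), although the Mrpl30 difference was 0.04 after median scaling. Mrpl36 and the complex I subunit gene Ndufs6, which overlap by 30 bases, both fell with LPS (−0.48 and −0.50) and rose with IL-4 (0.67 and 0.57), with the Mrpl36 fall at −0.08 after median scaling.

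RefSeq promoter windows, from 250 bases before to 50 bases after the start, were found for 67 of the 76 genes. An ETS match was present in 34.3% of them, against 20.5% of 8183 expressed genes and 12.1% of all 16338 genes with a window. A YY1 match was present in 17.9%, against 5.32% and 3.34%, and an NRF1 match in 22.4%, against 15.0% and 9.03%. E-box matches were present in 7.46%, against 10.7% of expressed genes, NF-kB matches in 7.46%, against 10.4%, and STAT6 matches in 4.48%, against 5.46%. Genes with and without an ETS match had median LPS differences of −0.52 and −0.42 and median IL-4 differences of 0.27 and 0.23. Those with and without a YY1 match had −0.59 and −0.42 with LPS and 0.18 and 0.26 with IL-4. The 5 genes with an NF-kB match had −1.05, and the 62 without had −0.42, with LPS, and 0.08 and 0.26 with IL-4. For NRF1, E-box and STAT6 the LPS medians with and without a match differed by less than for ETS. With IL-4 the medians with and without an NRF1 match were 0.12 and 0.26. They were 0.25 and 0.26 for E-box and 0.185 and 0.26 for STAT6. These shares and medians describe letters in the windows and were not tested. Mrpl52, Mrpl34 and Mrps22 were among the 23 genes with an ETS match.

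**Figure D5:**
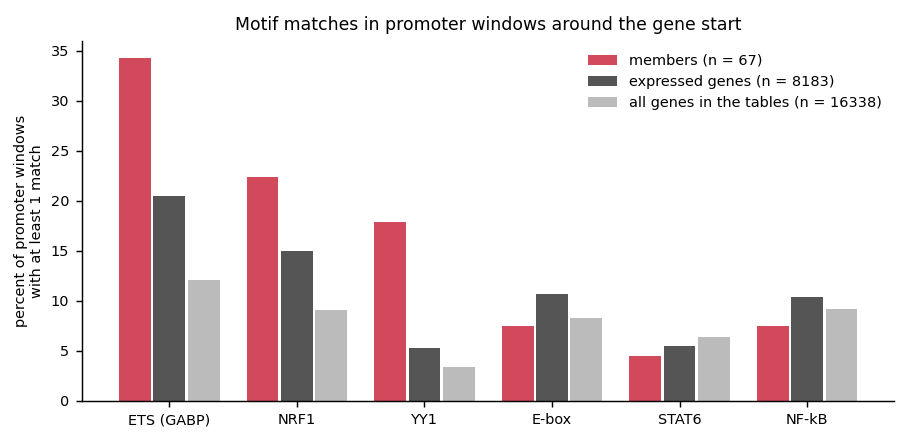
Percent of promoter windows of 300 bases with at least 1 match to each of 6 motifs on either strand, in 67 mitochondrial ribosomal protein genes (red), 8183 expressed genes (dark grey) and 16338 genes of the tables (light grey). ETS, NRF1 and YY1 matches are more frequent in the red bars (34.3%, 22.4% and 17.9%) than in the grey ones, and E-box, STAT6 and NF-kB matches are not.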

How the data were processed

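Poly(A) RNA libraries (TruSeq, not strand-marking) of the 12 samples were mapped by the authors to mm10 with TopHat2 2.0.7, and the deposited FPKM values were made with Cufflinks 2.0.2, per the labels and the submitters' processing notes. The gene annotation was not given in the sources used here, and depth is known only relatively. Rows with at least 1 FPKM in at least 1 sample were log2(FPKM + 1) transformed and fitted with limma 3.58.1 (R 4.3.3, 4 group means, intensity trend), with Benjamini-Hochberg adjustment over 11191 rows. The tests were two-sided and were checked on simulated data. The simulated samples were independent, so the check does not cover deviations shared by same-numbered samples. Fold changes of low genes are understated on this scale. P-values measure the spread between samples labelled as replicates. The 76 genes and the gene lists were chosen with earlier results of these data known. Genes were named by level (3 highest, 3 lowest), by size of change (4 per direction, same sign in all replicate numbers), by interaction and by ribosomal role, with up to 2 per pathway list, of which 1 is not reported here. Positions, overlaps and shared 50-base words came from GENCODE vM21, and promoters from RefSeq. Median scaling, quantile normalization, other filters, pseudocount 0.1, the replicate block and left-out samples were alternatives. Figures were drawn with matplotlib 3.10.9.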

Additional observations from a re-analysis of the deposited data

Results flagged for a closer look

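Mrps2 was singled out because its LPS response differed between cells with and without IL-4 by the interaction test, with a log2 difference of −0.43 (limma, adjusted p = 0.0354). The LPS response was 0.14 without IL-4 and −0.29 with it. The interaction was −0.41 with replicates 2 and 3 only (adjusted p = 0.022). Groups of 3 samples were not tested for single deviating samples.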

How the results depend on the processing

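Counts below are of the 76 genes, higher then lower. Median scaling gave 19 and 25 for LPS minus control (median −0.063) and 9 and 19 for IL-4+LPS minus IL-4 (median −0.03). For all 11191 rows it gave 3130 and 4218, and 2863 and 3759. Quantile normalization gave 14 higher (median −0.24) and 5 and 31 (median −0.23) for these, 1 lower for IL-4+LPS minus LPS, as did fitting only the compared groups, and 4 lower for the interaction. A 2-fold minimum on the log2(FPKM + 1) scale left 1 and 7 for LPS minus control and 1 and 0 for IL-4 minus control. It left 1 and 5 for IL-4+LPS minus IL-4, 2 and 0 for IL-4+LPS minus LPS and 0 lower for the interaction. In the same order, all 11191 rows gave 883 and 2121, 309 and 391, 842 and 1691, 303 and 332, and 155 lower. With replicates 2 and 3 only, 44 were higher with IL-4, and the interaction gave 6 and 8. Apart from median scaling and the 2-fold minimum, counts of all rows were not computed for the settings in this section. With the replicate number as a block the interaction gave 5 and 5, and no other count moved by over 1.5 times. Within that limit the count of genes higher with IL-4 still rose above the 29 of the main fit. Among the genes added were Mrps6 (adjusted p = 0.000529), Mrpl55 (0.00185, against 0.0539 in the main fit) and Mrps12 (0.0071, against 0.0796). Same-numbered samples deviated together in part (r from 0.0024 to 0.39, mean 0.124, 11 of 18 pairs over 0.1). Of the 12 samples, 9 correlated best with their own number. The labels tie no number to an animal or experiment, so the numbers were used as a block only in this alternative. Whether same-numbered samples share an animal or experiment cannot be told from the labels. Pairs of replicate 1 samples had r from 0.13 to 0.39, against 0.06 to 0.18 for replicate 2 and 0.0024 to 0.12 for replicate 3. Any deviation shared by replicate 1 samples stayed in the error of the main fit.

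Leaving out 1 sample at a time gave 4 to 5 higher and 41 to 53 lower for LPS minus control (median −0.51 to −0.40), 17 to 33 and 0 to 1 for IL-4 minus control (0.20 to 0.29), 2 to 3 and 45 to 55 for IL-4+LPS minus IL-4 (−0.47 to −0.36), 20 to 33 and 1 to 2 for IL-4+LPS minus LPS (0.19 to 0.28), and 0 to 1 and 0 to 3 for the interaction (−0.07 to 0.04). Mrps2 lost its interaction call without control replicate 1 or 3, any IL-4 replicate, LPS replicate 2 or 3, or IL-4+LPS replicate 3 (adjusted p from 0.0536 to 0.0939). Mrpl45 lost its call against LPS with quantile normalization (0.0616), with only the compared groups (0.0539) and without LPS replicate 2 or 3 or IL-4+LPS replicate 1 or 3 (0.0629 to 0.0747). The cause of these shifts was not tested. Mrpl24 lost its IL-4 call without any 1 of 3 samples, and no other gene named for its size of change or interaction lost its call. The STAT6 share was 0% when the window began 150 bases before the start, and the ETS, NRF1 and YY1 shares were 29.9%, 20.9% and 14.9%.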
